A study of Mus musculus with 32 samples.

Results

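Occlusal overload without a ligature was compared with no treatment in mouse bone. The members are the 4 bone libraries labelled Tra and the 4 labelled Co, chosen by their treatment labels, so 8 of the 32 libraries of the series, and 21205 genes were tested between them. All mice were 9-week-old wild type C57BL/6J males. The Co mice had no treatment, and the Tra mice had composite resin, a tooth-coloured filling material, built up on the chewing surface of the left upper second molar, so that this tooth meets its opponent too early. Bone libraries of 2 more groups stand beside them where stated: Li mice had a 6-0 silk ligature tied round that molar, which induces periodontitis, and LiTra mice had both the ligature and the resin. Gingiva of the 4 groups was sequenced too. The labels give neither the time between treatment and sampling nor the exact bone piece taken, and nothing in them says which libraries share an animal, so p-values measure the spread between libraries.

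A tooth is held in its socket by the periodontal ligament, a collagen-rich tissue that passes chewing force on to the alveolar bone. Osteocytes, osteoblasts and ligament fibroblasts sense strain, release signals such as prostaglandins, and set the balance between RANKL (Tnfsf11), which drives osteoclast formation, and its decoy receptor osteoprotegerin (Tnfrsf11b). Alveolar bone also holds marrow, so a bone library carries RNA of B cells, neutrophils and red cell precursors beside that of bone cells.

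The Co libraries held 42662599 to 70793037 counts and the Tra libraries 38163979 to 62703033. Bone was present in all 8: Bglap, the osteocalcin gene of osteoblasts, was at 1371, 1637, 973 and 1319 CPM (counts relative to the library total, scaled between libraries by the TMM method) in Co 1 to 4 and 2128, 1824, 1009 and 1329 in Tra 1 to 4. Co 3 and Tra 3 stood apart, with 51.1% and 62.9% of their counts on the 10 highest genes of each library. In Tra 3 that share was larger than the nasal gland share below, so other genes also held many of its counts. Genes of nasal glands took 0.190, 0.558, 47.4 and 14.9% of all counts in Co 1 to 4 and 7.01, 0.265, 29.1 and 0.123% in Tra 1 to 4, and the first principal component of the 8 libraries, with 52.2% of their variance, set Tra 3 at 104 and Co 3 at 46.8 while the other 6 lay between -43.4 and -8.53. Skeletal muscle genes took 0.00218, 0.0190, 0.0509 and 0.00442% in Co and 0.0786, 0.00290, 0.0610 and 0.0578% in Tra, and keratinocyte genes 1.04, 0.00490, 0.0307 and 0.0134% and 0.0322, 0.0583, 0.0566 and 0.227%. Counts of the gene lists without these 2 libraries stand beside those of all 8 where they moved.

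**Figure D1:**
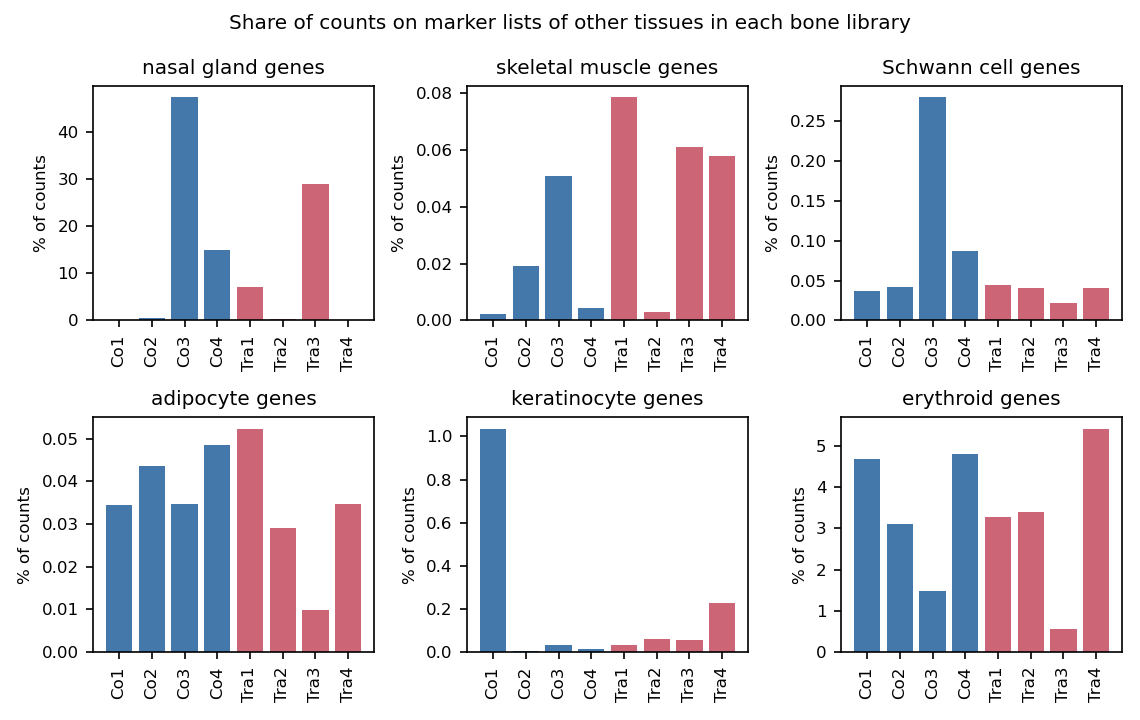
Share of each bone library's counts (y axis, percent, one scale per panel) on marker lists of other tissues and cell types, in Co (blue) and Tra (red) libraries 1 to 4. Nasal gland genes reach 47.4% in Co 3 and 29.1% in Tra 3, Schwann cell genes stand highest in Co 3 and keratinocyte genes in Co 1.

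No gene passed an adjusted p of 0.05 between Tra and Co bone in edgeR's quasi-likelihood test with Benjamini-Hochberg adjustment, so 0% of 21205 were called. The lowest adjusted p was 0.0776. Before adjustment 2023 genes (9.54%) had a p under 0.05, of which 1100 (5.19%) were higher and 923 (4.35%) lower in Tra, and this number was 1304 without Co 4 and 278 with library totals in place of TMM. Over all genes the median log2 difference, Tra minus Co as in every value below, was 0.02 and the median standard error (SE) 0.29. Among the 14012 genes with a mean log2 CPM of at least 1, 337 differed by 2-fold or more in the fitted value. All 4 Tra libraries lay above all 4 Co libraries for 534 genes (2.52%) and below them for 748 (3.53%). DESeq2, run as an alternative on the same counts, called 156 genes (0.736%), 100 higher and 56 lower, and gave 6029 genes no adjusted p. All 156 had an unadjusted p under 0.05 in edgeR, and 138 did not overlap between the groups.

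The 12 higher genes with the smallest p lay above every Co library in every Tra library, by 0.33 to 0.83 on the log2 scale, and DESeq2 called each of them. They were chosen by p from these same libraries, so neither their separation nor the DESeq2 calls are separate support. Srek1, which encodes a splicing regulator, was at 69.6, 68.2, 67.3 and 63.4 CPM in Co and 89.0, 93.9, 95.6 and 96.8 in Tra. Its difference was 0.48 ± 0.08 (SE), with an adjusted p of 0.262 by edgeR and 1.18e-06 by DESeq2. Each group of Srek1 libraries lay close together and apart from the other group. Wrb, a receptor that inserts tail-anchored proteins into the endoplasmic reticulum, was at 9.34, 9.77, 8.70 and 9.78 in Co and 13.6, 13.6, 15.4 and 13.5 in Tra (0.58 ± 0.10, adjusted p 0.262 by edgeR). Sar1a, the GTPase that starts vesicle budding from the endoplasmic reticulum, was at 147, 160.0, 152 and 141 in Co and 202, 205, 209 and 189 in Tra (0.42 ± 0.08, adjusted p 0.380 by edgeR). For both genes the gap between the groups exceeds the spread on either side, though for Wrb Tra 3 stood above the other Tra libraries. Snx7, a sorting nexin of endosomes, was at 20.5, 22.9, 15.6 and 17.0 in Co and 31.0, 32.4, 26.3 and 37.6 in Tra (0.74 ± 0.14). Wdr35, a part of the transport machinery of cilia, was at 13.2, 13.4, 14.0 and 12.4 in Co and 21.5, 22.1, 28.8 and 22.2 in Tra (0.83 ± 0.18), the widest gap of the 12, with Tra 3 above the other Tra libraries. The others were Tmem39a (0.51 ± 0.10), the Golgi transport gene Golt1b (0.41 ± 0.08), the zinc finger gene Zfp24 (0.33 ± 0.07), the secreted factor Fam3c (0.64 ± 0.14), and 3 entries tied to heat shock proteins, Dnaja1, Hspa8 and Gm15459, which are described with their group.

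The 12 lower genes with the smallest p lay below every Co library in every Tra library, by 0.33 to 0.98, and DESeq2 called each of them too. Their choice by p carries the same limit. Mapk3, which encodes the kinase ERK1, was at 94.3, 104, 123 and 107 CPM in Co and 81.2, 78.5, 69.4 and 77.7 in Tra (-0.48 ± 0.10, adjusted p 0.380 by edgeR and 0.00187 by DESeq2). Sbk1, a kinase gene, was at 40.4, 40.5, 31.0 and 43.9 in Co and 21.5, 28.4, 20.7 and 26.8 in Tra (-0.68 ± 0.13, adjusted p 0.380 by edgeR). Of the 4 Co libraries Co 3 was the highest for Mapk3 and the lowest for Sbk1, and neither gene overlapped between groups. Satb1, a chromatin organiser of lymphocytes, was at 42.2, 39.5, 48.7 and 41.8 in Co and 29.1, 25.9, 29.7 and 30.1 in Tra (-0.58 ± 0.13). Foxp1, a transcription factor that B cell development needs, was at 64.2, 66.7, 64.9 and 59.4 in Co and 46.5, 54.2, 52.4 and 49.5 in Tra (-0.33 ± 0.08). Cd40, the receptor through which T cells activate B cells, was at 6.04, 6.28, 5.11 and 6.78 in Co and 3.10, 2.86, 2.16 and 4.18 in Tra (-0.98 ± 0.23), the widest gap of these 12. The kinase genes Prkd2 (-0.64 ± 0.15) and Map3k11 (-0.36 ± 0.08), the DNA end-joining polymerase gene Polm (-0.55 ± 0.13), the lipid transporter gene Abca2 (-0.59 ± 0.13), Trp53i11 (-0.78 ± 0.16), Gigyf1 (-0.36 ± 0.08) and Tmc6 (-0.42 ± 0.10) made up the rest.

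B cell genes were the list with the highest share of members at an unadjusted p under 0.05. None of the 13 was called by edgeR, but 12 of 13 had such a p with a lower level in Tra, against 4.35% of all genes; with library totals it was 5 of 13. All 13 differences were negative, 9 of 13 had every Tra library below every Co library (3.53% of all genes), and the median was -1.45 against 0.02. Fewer cells of a type and less RNA per cell cannot be told apart in bulk libraries. Tnfrsf13c, the BAFF receptor that keeps mature B cells alive, was at 19.0, 19.2, 12.5 and 24.3 CPM in Co 1 to 4 and 5.77, 4.02, 2.203 and 8.93 in Tra 1 to 4. Its group means were 18.7 ± 4.81 and 5.23 ± 2.86 (SD, n = 4 each), the log2 difference was -1.84 ± 0.45 (95% interval -2.80 to -0.87), and the adjusted p was 0.409 by edgeR and 0.0112 by DESeq2. No Tra library reached the lowest Co library. Cd22, an inhibitory co-receptor of the B cell receptor, was at 45.8, 45.3, 31.7 and 51.8 in Co and 13.5, 10.1, 4.08 and 25.1 in Tra (-1.72 ± 0.44, adjusted p 0.409 by edgeR and 0.0142 by DESeq2). Ighd, the IgD heavy chain of mature naive B cells, was at 58.7, 47.6, 38.1 and 87.2 in Co and 15.03, 11.6, 6.56 and 36.1 in Tra (-1.74 ± 0.56). Fcmr, the receptor for IgM, was at 20.1, 19.3, 10.2 and 28.2 in Co and 4.50, 3.96, 1.74 and 10.6 in Tra (-1.90 ± 0.58). Its Tra 4 value passed that of Co 3, the only crossing among these 4 genes. Within each group replicate 4 was the highest and replicate 3 the lowest for all 4. Ighm, the IgM heavy chain, named after its values were seen because it was the 1 member outside the count, was at 432, 382, 331 and 860.3 in Co and 241, 463, 194 and 238 in Tra (-0.82 ± 0.42, adjusted p 0.556 by edgeR).

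**Figure D2:**
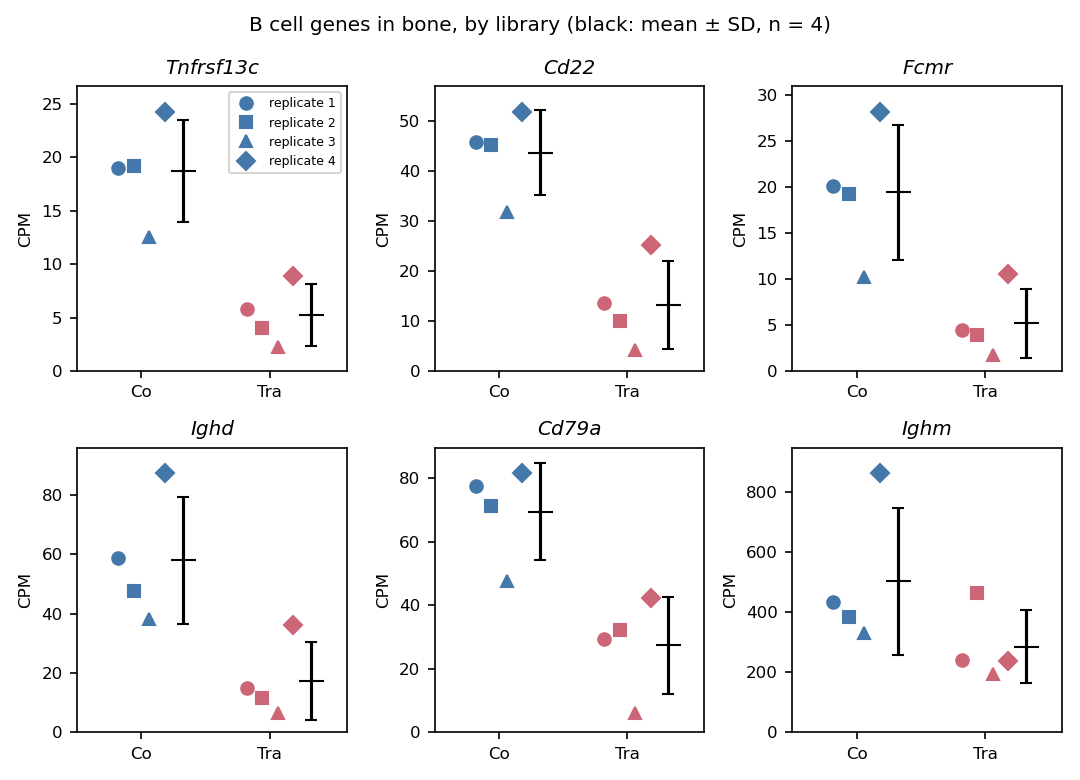
Level of 6 B cell genes (y axis, CPM, from 0) in the 4 Co (blue) and 4 Tra (red) bone libraries, with a symbol per replicate number, and the mean ± SD of each group in black (n = 4). The groups do not overlap for Tnfrsf13c, Cd22, Ighd and Cd79a, and overlap for Fcmr and Ighm.

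Neighbouring stages of the B lineage did not share those counts. Pre-B cell genes had a median of -0.16 (0.14 without Co 3 and Tra 3), with 0 of 9 at such a p, and plasma cell genes a median of 0.13, with 0 of 8. The red cell list, with a median of -0.17 and 0 of 17, was likewise near 0, while its summed share ran from 1.48% to 4.81% of counts in Co and from 0.555% to 5.42% in Tra. Without Co 3 and Tra 3 the B cell list had a median of -1.28, with 11 of 13 at an unadjusted p under 0.05.

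Genes of MHC class II, with which B cells, macrophages and dendritic cells present antigen to T cells, were at such a p in 6 of 11 members, all lower in Tra, with a median of -0.58. Of all genes 4.35% were lower at such a p. H2-DMb2, a chain of the peptide-loading factor H2-DM, was at 20.5, 17.9, 9.997 and 22.0 CPM in Co and 6.90, 4.64, 3.58 and 11.2 in Tra (-1.42 ± 0.35, adjusted p 0.409 by edgeR and 0.0123 by DESeq2), with Tra 4 above Co 3. H2-Ob, a chain of the H2-O factor that B cells use to hold H2-DM in check, was at 35.3, 31.1, 24.3 and 39.5 in Co and 13.8, 9.23, 4.45 and 21.7 in Tra (-1.40 ± 0.43), and its partner H2-Oa differed by -1.34 ± 0.54, both with no overlap. Cd74, the invariant chain common to antigen-presenting cells, was at 438, 385, 297 and 541 in Co and 216, 215, 225 and 357 in Tra (-0.71 ± 0.23), a smaller gap in which Tra 4 again lay above Co 3. Without Co 3 and Tra 3 the list had 5 of 11 lower and a median of -0.58. Macrophage genes had a median of -0.03, with 2 of 19 higher and 0 lower at such a p (0 and 0 without those libraries). Of all genes 5.19% were higher at such a p. Dendritic cell genes had a median of -0.39 with 1 of 13 lower.

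T and NK cell genes were negative in 22 of 22 members, with a median of -0.71. At an unadjusted p under 0.05 were 5 of 22, where 4.35% of all genes were lower. Cd2, an adhesion receptor of T cells, was at 6.98, 7.50, 3.70 and 9.50 CPM in Co and 2.92, 2.29, 0.872 and 4.89 in Tra (-1.33 ± 0.48). Cd3e and Cd3g, chains of the T cell receptor complex, differed by -1.29 ± 0.49 and -1.05 ± 0.45, and Zap70, the kinase next to it, by -1.21 ± 0.50. Each of these overlapped between groups, and Cd3e, Cd3g and Zap70 were low in all 8 libraries. Neutrophil genes were negative in 18 of 18, with a median of -0.83. Of these, 12 of 18 had every Tra library below every Co library (3.53% of all genes), but 2 had a p under 0.05. Ltf, lactoferrin of neutrophil granules, was at 2018, 2283, 2518 and 1961 in Co and 1673, 1309.8, 1002 and 1343 in Tra (-0.72 ± 0.31). Fpr1, a receptor for bacterial peptides, was at 25.7, 26.3, 26.1 and 24.5 in Co and 18.2, 13.5, 2.48 and 15.2 in Tra (-1.05 ± 0.47). Csf3r, the G-CSF receptor, differed by -0.95 ± 0.47 and S100a8, a calcium-binding alarmin, by -0.98 ± 0.52. Tra 3 was far below the other Tra libraries for Fpr1, Csf3r and S100a8. Without Co 3 and Tra 3 the neutrophil median was -0.59 with 0 at such a p, and that of T and NK cells -0.63 with 4. Genes of neutrophil precursors, whose median was -0.73, had 0 of 12 at such a p, and without those libraries a median of -0.46 with 0.

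Heat shock genes, which encode chaperones that fold proteins and rescue them under stress, were the list with the highest share of members higher in Tra at an unadjusted p under 0.05. These were 7 of 13, against 5.19% of all genes, and 5 had every Tra library above every Co library (2.52% of all genes). The median was 0.36, and none was called by edgeR. DESeq2 called 3 of 13, all higher, where it called 0.472% of all genes higher. Heat shock factor, a transcription factor, binds short GAA blocks that alternate with their inverted form TTC, so the promoters of 3 members that hold such blocks in a row are shown, from RefSeq on GRCm38.p6 and running from 250 bases before the gene's start to 50 after it. Capitals mark the matches to GAANNTTCNNGAA or its reverse complement TTCNNGAANNTTC, where several overlap as 1 block. The block lies before the gene's start in Hspe1, spans the start in Chordc1 and lies after it in Hsph1.
Chordc1 promoter, chr9:18292017-18292316, plus strand: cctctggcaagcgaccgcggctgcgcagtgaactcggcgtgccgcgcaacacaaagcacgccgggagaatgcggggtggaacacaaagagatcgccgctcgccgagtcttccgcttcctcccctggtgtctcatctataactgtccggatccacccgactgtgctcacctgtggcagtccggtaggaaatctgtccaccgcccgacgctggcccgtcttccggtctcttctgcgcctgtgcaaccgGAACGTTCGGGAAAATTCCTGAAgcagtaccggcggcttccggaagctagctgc
Hspe1 promoter, chr1:55087898-55088197, plus strand: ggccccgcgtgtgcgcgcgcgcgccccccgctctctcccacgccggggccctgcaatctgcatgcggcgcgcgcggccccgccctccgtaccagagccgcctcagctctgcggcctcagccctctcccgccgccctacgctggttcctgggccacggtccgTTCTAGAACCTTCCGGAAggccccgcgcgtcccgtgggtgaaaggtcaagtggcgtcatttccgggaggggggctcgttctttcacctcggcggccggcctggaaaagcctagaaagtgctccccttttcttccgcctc
Hsph1 promoter, chr5:149636287-149636586, minus strand: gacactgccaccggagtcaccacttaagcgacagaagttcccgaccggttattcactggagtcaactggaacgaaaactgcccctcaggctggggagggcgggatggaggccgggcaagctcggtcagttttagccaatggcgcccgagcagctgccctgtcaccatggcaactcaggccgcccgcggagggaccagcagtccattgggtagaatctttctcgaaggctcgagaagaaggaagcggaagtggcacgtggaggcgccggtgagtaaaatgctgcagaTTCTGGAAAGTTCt
Of the 13 listed genes 11 had a promoter in the table, and 4 of these, Chordc1, Hspd1, Hspe1 and Hsph1, held the 13-letter motif, against 179 of 27025 genes (0.662%). Hspd1 and Hspe1 start next to each other on opposite strands, and the matches in their windows are the same letters, so the 4 genes hold 3 separate blocks. Dnaja1 held none in its window, and the 2 genes with no entry were Hspa8 and Hsp90aa1. The shorter form GAANNTTC or TTCNNGAA, which lies within the longer one, was in 9 of 11 and in 17.0% of all. A match describes the letters in this window and is not a bound site. The letters come from the reference genome and not from these libraries, so these shares do not describe Tra against Co.

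Dnaja1, an Hsp40 co-chaperone, was at 112, 114, 121 and 105 CPM in Co and 155, 136, 149 and 161 in Tra (0.41 ± 0.08, adjusted p 0.380 by edgeR and 0.00113 by DESeq2). Hspa8, the constitutive Hsp70, was at 880.1, 839.6, 868 and 827 in Co and 1189.9, 1129, 1552 and 1345 in Tra (0.61 ± 0.13, adjusted p 0.380 by edgeR and 3.06e-05 by DESeq2). The Co libraries of Hspa8 lay close together, and the Tra libraries spread further, with Tra 3 highest. Gm15459, the gene with the lowest adjusted p of all, is a copy of Hspa8: its 1941-base transcript is 99.742% identical to it over its whole length, so reads of both entries can be assigned to either, and its 86.5, 79.1, 83.8 and 80.1 CPM in Co and 123, 112, 145 and 126 in Tra (0.62 ± 0.09, adjusted p 0.0776 by edgeR) are uncertain and are no separate result. Chordc1, a co-chaperone of Hsp90 whose promoter is shown above, was at 40.4, 41.1, 38.3 and 36.0 in Co and 51.7, 47.7, 41.7 and 53.3 in Tra (0.32 ± 0.08). Hspe1, the mitochondrial chaperonin Hsp10, was at 43.6, 35.4, 36.5 and 35.3 in Co and 54.1, 46.4, 50.9 and 42.6 in Tra (0.36 ± 0.09), where Tra 4 lay below Co 1. Hsph1, an Hsp110, and the cytosolic chaperone Hsp90aa1, both named after their values were seen, differed by 0.81 ± 0.29 and 0.35 ± 0.11. For Hsph1 the Tra 3 library, at 104 CPM, was the highest, and the other 3 ran from 42.1 to 57.9. Without Co 3 and Tra 3 the list had a median of 0.23 and 5 of 13 at an unadjusted p under 0.05, and with library totals in place of TMM none had one.

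**Figure D3:**
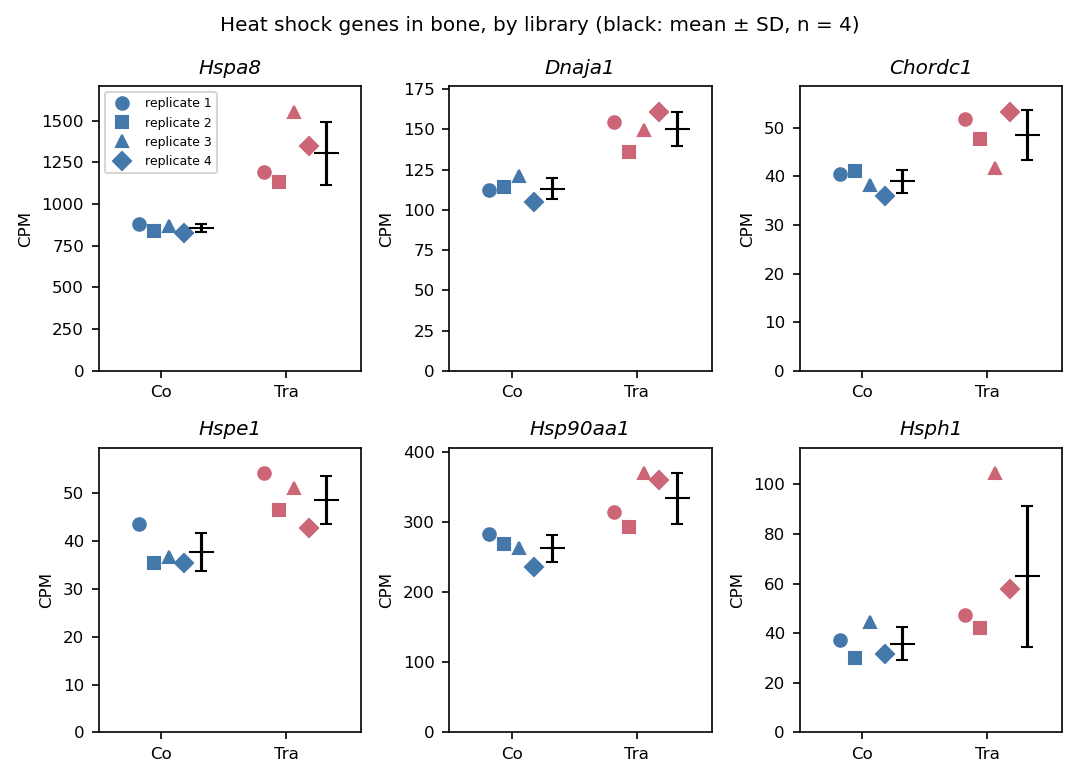
Level of 6 heat shock genes (y axis, CPM, from 0) in the 4 Co (blue) and 4 Tra (red) bone libraries, with a symbol per replicate number, and the mean ± SD of each group in black (n = 4). The Tra libraries lie above all Co libraries for Hspa8, Dnaja1, Chordc1 and Hsp90aa1, and overlap with them for Hspe1 and Hsph1.

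Genes that respond to bone loading were higher in Tra at an unadjusted p under 0.05 in 6 of 17 members and lower in 0. Of all genes 5.19% were higher at such a p. The median of the list was 0.39, and none of its members was called by edgeR. Ptgs2, the inducible cyclooxygenase that makes prostaglandins in strained bone, was at 1.23, 1.20, 1.85 and 0.571 CPM in Co and 3.61, 2.33, 2.48 and 4.67 in Tra (1.45 ± 0.63, adjusted p 0.504 by edgeR). Ptn, the secreted factor pleiotrophin, was at 90.9, 81.7, 35.0 and 58.2 in Co and 130.1, 150.4, 99.0 and 148 in Tra (0.99 ± 0.35). Neither gene overlapped between the groups, and Ptgs2 was low in all 8 libraries. Igf1, an anabolic growth factor, was at 79.4, 118, 64.4 and 104 in Co and 135, 181, 84.6 and 152 in Tra (0.59 ± 0.23). Angptl4, a secreted inhibitor of lipoprotein lipase, was at 9.04, 12.9, 11.3 and 12.8 in Co and 35.5, 58.1, 5.92 and 14.3 in Tra (1.31 ± 0.51), with Tra 1, Tra 2 and Tra 4 above and Tra 3 below every Co library. Timp1, an inhibitor of matrix metalloproteinases, was at 58.7, 80.8, 49.0 and 51.8 in Co and 126, 109.9, 52.4 and 75.5 in Tra (0.60 ± 0.24). Sost, the Wnt inhibitor of osteocytes that loading lowers in long bones, was at 26.9, 29.0, 12.1 and 44.6 in Co and 37.9, 62.0, 27.7 and 68.3 in Tra (0.80 ± 0.53, 95% interval -0.34 to 1.93). Without Co 3 and Tra 3 the list had a median of 0.24, with 6 of 17 higher at such a p.

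Genes of periodontal ligament and tendon had 4 of 18 higher and 0 lower at such a p, with a median of 0.46, and genes of collagen and matrix assembly 5 of 22 and 0, with a median of 0.34. Of all genes 5.19% were higher at such a p. Lum, which encodes lumican, a proteoglycan that spaces collagen fibrils, was at 678, 711, 419.6 and 539 CPM in Co and 1133, 1255, 752 and 1213 in Tra (0.89 ± 0.25, adjusted p 0.409 by edgeR and 0.0247 by DESeq2). Dcn, the related decorin, was at 759, 852, 884 and 732 in Co and 1152, 1387, 1004 and 1378 in Tra (0.61 ± 0.21). For both, all Tra libraries lay above all Co libraries. Fmod, fibromodulin, and Mkx, a transcription factor of tendon and ligament cells, differed by 0.81 ± 0.32 and 0.50 ± 0.21 with overlap. Postn, periostin, an abundant matrix protein of the ligament, was at 6404, 6026, 2560.0 and 4690.5 in Co and 7366, 10144, 6224 and 10345 in Tra (0.79 ± 0.39, adjusted p 0.542 by edgeR). Plod2, which hydroxylates lysines for collagen cross-links, was at 132, 163, 82.6 and 109 in Co and 208, 264, 150.3 and 232 in Tra (0.81 ± 0.24). P4ha1, a collagen prolyl hydroxylase subunit, was at 63.7, 66.5, 62.0 and 53.8 in Co and 92.0, 94.8, 79.2 and 96.9 in Tra (0.56 ± 0.18), with no overlap. The cross-linking enzymes Loxl3 and Lox differed by 0.52 ± 0.24 and 0.39 ± 0.18, while Col1a1, the main collagen chain of bone, was at 8219, 9791, 3379 and 15798 in Co and 7591, 10783, 7623 and 9374 in Tra (-0.07 ± 0.37). With Co 3 and Tra 3 left out, the ligament list had 3 of 18 higher with a median of 0.36, and the matrix list 7 of 22 with 0.23.

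Of 20 osteoclast genes 0 were higher and 0 lower at an unadjusted p under 0.05 in edgeR, with 9 positive and 11 negative differences and a median of -0.01. Acp5, the tartrate-resistant acid phosphatase, was at 792, 1446, 754 and 863 CPM in Co and 1061, 1368, 499.5 and 851 in Tra (-0.03 ± 0.29, 95% interval -0.66 to 0.60). Ctsk, the collagen-cutting cathepsin K, was at 1019.8, 1637, 847 and 1039 in Co and 1628, 1985, 752 and 1309.6 in Tra (0.32 ± 0.29, 95% interval -0.29 to 0.94). Both intervals reach from a lower to a higher level in Tra, so a difference inside them was not detectable with these libraries. The list of signals for osteoclast formation also holds RANKL's decoy receptor Tnfrsf11b, so its counts are not counts of inducers alone. It had 3 of 18 higher and 1 lower, against 2 and 1 when Co 3 and Tra 3 were left out. Of all genes 5.19% were higher and 4.35% lower. Tnfrsf11b, osteoprotegerin, was at 41.4, 34.0, 19.4 and 25.8 in Co and 49.9, 63.1, 30.4 and 45.0 in Tra (0.64 ± 0.26), and Tnfsf11, RANKL, at 7.83, 15.1, 8.89 and 8.11 in Co and 16.3, 18.4, 8.72 and 12.96 in Tra (0.50 ± 0.28, unadjusted p 0.0943). Both overlapped between the groups, and in both Tra 3 was the lowest Tra library. Sfrp1, a secreted Wnt antagonist, was at 42.0, 46.7, 32.9 and 45.6 in Co and 52.8, 52.9, 81.2 and 89.9 in Tra (0.73 ± 0.26). The receptor Tnfrsf11a (RANK) and the macrophage growth factor Csf1 differed by 0.19 ± 0.24 and -0.20 ± 0.17. Mmp13, the collagenase of osteoblasts and hypertrophic cartilage, was at 933, 1602, 738 and 1001 in Co and 1783, 1902, 787 and 1452 in Tra (0.47 ± 0.30).

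Osteoblast genes had 2 of 17 higher at an unadjusted p under 0.05 and 0 lower, and 15 of 17 positive differences with a median of 0.17; 3 were higher and 0 lower without Co 3 and Tra 3. Ifitm5, a membrane protein of mineralising osteoblasts, was at 19.4, 21.6, 15.4 and 17.6 CPM in Co and 41.8, 38.6, 23.8 and 29.1 in Tra (0.85 ± 0.23, adjusted p 0.409 by edgeR and 0.0335 by DESeq2), with no overlap. Smpd3, a sphingomyelinase that mineralisation needs, and Ibsp, bone sialoprotein, differed by 0.59 ± 0.26 and 0.53 ± 0.27, and Bglap by 0.25 ± 0.31. Osteocyte genes had 0 of 12 higher and 0 lower, and Dmp1, a mineral-binding protein of osteocytes, was at 493, 586, 314 and 539 in Co and 450.2, 735, 175 and 267 in Tra (-0.25 ± 0.38). Mechanosensing genes had 1 of 16 higher and 0 lower, with the force-gated channel Piezo1 at -0.36 ± 0.21. Of the YAP pathway, which strain switches on in many cells, 1 of 13 was higher and 0 lower, and its targets Ccn1 and Ccn2 differed by 0.39 ± 0.41 and 0.19 ± 0.33. With all libraries the mechanosensing and YAP shares are near those of all genes, 5.19% higher and 4.35% lower. With Co 3 and Tra 3 left out, mechanosensing genes had 0 higher and 3 lower, and those of the YAP pathway 0 and 0.

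Il6, an inflammatory cytokine that also drives osteoclast formation, was at 0.142, 0.231, 0.666 and 0.183 CPM in Co and 0, 0.169, 0.275 and 0.403 in Tra (-0.44 ± 0.83), and Il1b, a cytokine of activated macrophages, at 17.9, 7.66, 5.22 and 7.74 in Co and 13.1, 5.69, 3.17 and 8.57 in Tra (-0.33 ± 0.59). In Li bone the means of these genes were 8.19 ± 5.29 and 48.5 ± 30.3 CPM (SD, n = 4), and in LiTra bone 18.7 ± 10.8 and 143 ± 86.8. Tnf, which macrophages and lymphocytes make, was at 6.07, 4.68, 2.78 and 3.88 in Co and 1.74, 2.03, 1.97 and 3.57 in Tra (-0.90 ± 0.36). Of 18 cytokine and receptor genes 0 were higher and 2 lower at an unadjusted p under 0.05, where 5.19% and 4.35% of all genes were. Beside Tnf the other lower gene was the IL-17 receptor chain Il17ra (-0.69 ± 0.30). Of 22 chemokine genes 2 were higher, Ccl8 (0.97 ± 0.37) and Cxcl16 (0.51 ± 0.20), and 2 lower. Cxcl12, with which stromal cells hold B lineage cells and stem cells in marrow, was at 733, 775, 562 and 801 in Co and 471, 424, 170.0 and 588 in Tra (-0.80 ± 0.30), with Tra 4 inside the Co range and the other 3 below it. Ccl6, a chemokine of myeloid cells, was at 73.3, 66.2, 74.6 and 81.1 in Co and 54.4, 45.9, 18.6 and 62.9 in Tra (-0.70 ± 0.30). Interferon response genes had 0 of 20 higher and 0 lower. Leaving out Co 3 and Tra 3 gave 0 higher and 4 lower for cytokines, and 1 and 1 for chemokines.

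Clock genes stood in both directions, with 2 of 18 higher and 2 lower at such a p, and 0 and 1 without Co 3 and Tra 3. Of all genes 5.19% were higher and 4.35% lower. Nr1d1, the repressor REV-ERB alpha, was at 68.1, 67.6, 48.3 and 88.5 CPM in Co and 49.9, 39.3, 27.3 and 13.8 in Tra (-1.07 ± 0.32), and Dbp, a clock output factor, at 94.5, 91.2, 94.3 and 89.9 in Co and 88.9, 64.8, 42.1 and 17.5 in Tra (-0.79 ± 0.33). Arntl (BMAL1), which Nr1d1 represses, was at 10.2, 8.58, 4.55 and 7.83 in Co and 7.82, 9.61, 16.1 and 14.5 in Tra (0.62 ± 0.29), and its partner Clock at 47.8, 35.0, 40.6 and 28.6 in Co and 39.6, 47.0, 69.1 and 61.9 in Tra (0.52 ± 0.19). The Co libraries of Dbp lay close together and the Tra libraries spread widely, with Tra 3 and Tra 4 lowest for Dbp and Nr1d1 and highest for Arntl and Clock. The labels give no hour of sampling, and its part in these values was not tested. In gingiva Nr1d1 differed by -1.03 and Arntl by 0.98 between Tra and Co.

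Glucocorticoid response genes had 3 of 12 higher and 0 lower at such a p, where 5.19% of all genes were higher and 4.35% lower. The metallothionein gene Mt1 was at 71.3, 81.9, 68.7 and 70.0 CPM in Co and 109, 133, 83.0 and 88.9 in Tra (0.51 ± 0.18), with no overlap. Mt2 differed by 0.42 ± 0.17 and the kinase gene Sgk1 by 0.38 ± 0.16, both with overlap. The list had 4 of 12 higher without Co 3 and Tra 3. Of 22 immediate early genes 0 were higher and 3 lower: Klf2, a factor of lymphocytes and endothelium, was at 52.3, 52.8, 35.6 and 56.4 in Co and 34.9, 37.3, 16.4 and 34.5 in Tra (-0.68 ± 0.25), and Zfp36, which destabilises cytokine mRNAs, and Myc differed by -0.61 ± 0.20 and -0.34 ± 0.14. In the Wnt pathway 3 of 36 were higher and 1 lower, among them the antagonists Sfrp1 and Sfrp4 (0.79 ± 0.28), the receptor Lgr4 (0.34 ± 0.14) and its ligand Rspo3 (-0.59 ± 0.26). In the BMP and TGF-beta pathways 3 of 32 were higher and 1 lower, namely the BMP receptors Bmpr1a (0.42 ± 0.15) and Bmpr2 (0.28 ± 0.12), the BMP inhibitor Chrd (0.72 ± 0.27) and the growth factor Tgfb1 (-0.52 ± 0.24). With those 2 libraries left out the Wnt list had 1 higher and 1 lower, the BMP and TGF-beta list 2 and 1, and the immediate early list 0 and 3.

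**Figure D4:**
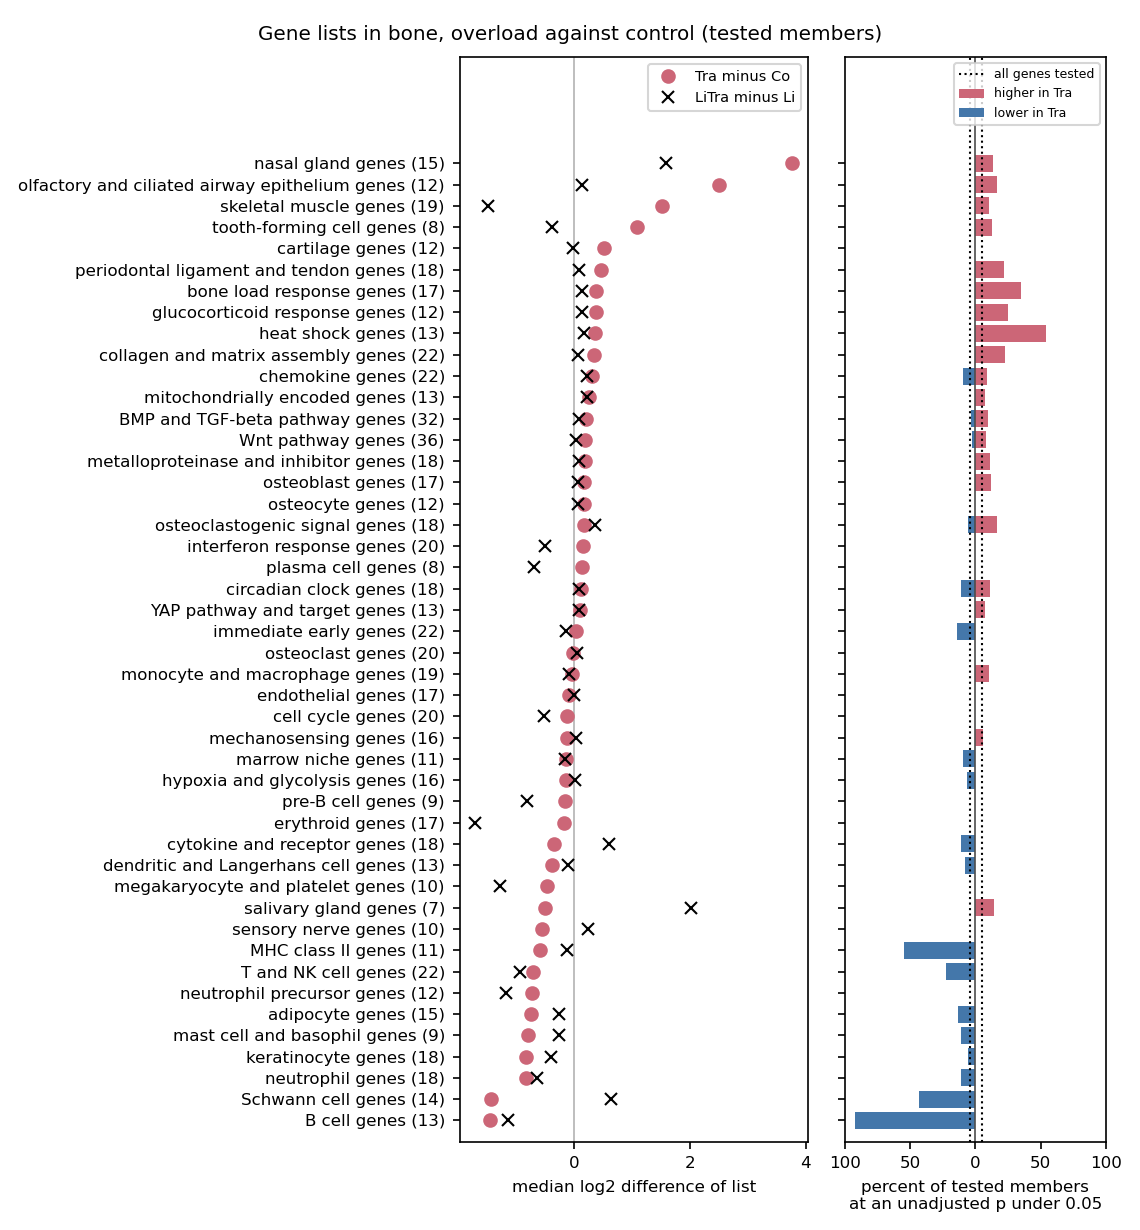
Left, the median log2 difference of the tested members of each of 46 gene lists (y axis, number tested in brackets), for Tra minus Co (circles) and LiTra minus Li (crosses) in bone. Right, the percent of tested members at an unadjusted p under 0.05 in Tra against Co, higher to the right and lower to the left, with dotted lines at the 5.19% and 4.35% of all genes. B cell genes have the lowest circle and the longest bar, and heat shock genes the longest bar to the right.

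Several of the widest medians belonged to lists of other tissues. Olfactory and ciliated airway epithelium genes had a median of 2.51, and 0.79 without Tra 3. Of these, 2 of 12 were higher at an unadjusted p under 0.05, where 5.19% of all genes were. Their summed level ran from 64.8 to 901 CPM in Co and from 65.8 to 8113 in Tra. Nasal gland genes had a median of 3.76 with 2 of 15 higher at an unadjusted p under 0.05, which became -1.03 with 1 without Co 3 and Tra 3. Skeletal muscle genes had 1.52 with 2 of 19, and 2.43 with 3 without those libraries. Schwann cell genes had a median of -1.44 with 6 of 14 lower (4.35% of all genes), and -0.47 with 0 of 14 without them. Mbp, a gene of the myelin sheath, was at 66.0, 88.3, 1113 and 205 CPM in Co and 83.0, 65.8, 70.2 and 72.1 in Tra (-2.34 ± 0.87), and the myelin gene Prx differed by -2.57 ± 0.89. Both were highest in Co 3, then Co 4. Cnp, another myelin gene, was at 79.2, 81.2, 176 and 84.8 in Co and 65.0, 61.4, 41.4 and 61.1 in Tra (-0.88 ± 0.30). Adipocyte genes had 2 of 15 lower (3 without those libraries): Lipe, the hormone-sensitive lipase, was at 16.7, 18.6, 22.3 and 20.7 in Co and 12.4, 12.6, 12.7 and 13.6 in Tra (-0.61 ± 0.17), and Retn, resistin, was at 0.302, 0.590, 2.55 and 0.914 in Co and 0.0668, 0.212, 0.688 and 0.0403 in Tra (-2.17 ± 0.93).

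The same treatment step was measured a further time in bone, as LiTra against Li, which shares no library with Tra against Co. Nasal gland genes took up to 24.2% of a library's counts in Li and up to 50.9% in LiTra. Of the 1100 genes higher in Tra at an unadjusted p under 0.05, 882 (80.2%) had a positive difference there, and of the 923 lower genes 763 (82.7%) a negative one, against 65.4% of all 21205 genes with the same sign in both. At an unadjusted p under 0.05, 79 of the 1100 were higher in LiTra and 5 lower, and 213 of the 923 lower and 4 higher, where 1.51% of all genes were higher and 4.86% lower. Across all genes Pearson's r of the 2 differences was 0.217, a description only, since genes are not independent replicates. B cell genes had a median of -1.15 in LiTra against Li, with 8 of 13 lower at such a p. Tnfrsf13c averaged 3.81 ± 1.95 CPM in Li and 2.098 ± 1.121 in LiTra (SD, n = 4 each), both below the Co mean. T and NK cell genes had 7 of 22 lower. Red cell genes, near 0 in Tra against Co, had a median of -1.70 with 16 of 17 lower. Heat shock genes had a median of 0.16 with 1 of 13 higher, and ligament genes one of 0.08 with 0 of 18. Ptgs2 was at 14.9 ± 6.36 in Li and 57.6 ± 46.0 in LiTra (log2 difference 1.95). No gene was called in LiTra against Li (1352 genes, 6.38%, at an unadjusted p under 0.05), and none in the test of the interaction, the resin difference with the ligature minus that without (644 genes, 3.04%), both by edgeR. DESeq2 called 106 and 8 genes in these comparisons. Without Co 3, Tra 3 and LiTra 1, the 3 libraries with the largest nasal gland shares, edgeR again called none in LiTra against Li. The Li library at 24.2% stayed in that fit. In that fit 2141 genes had an unadjusted p under 0.05.

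**Figure D5:**
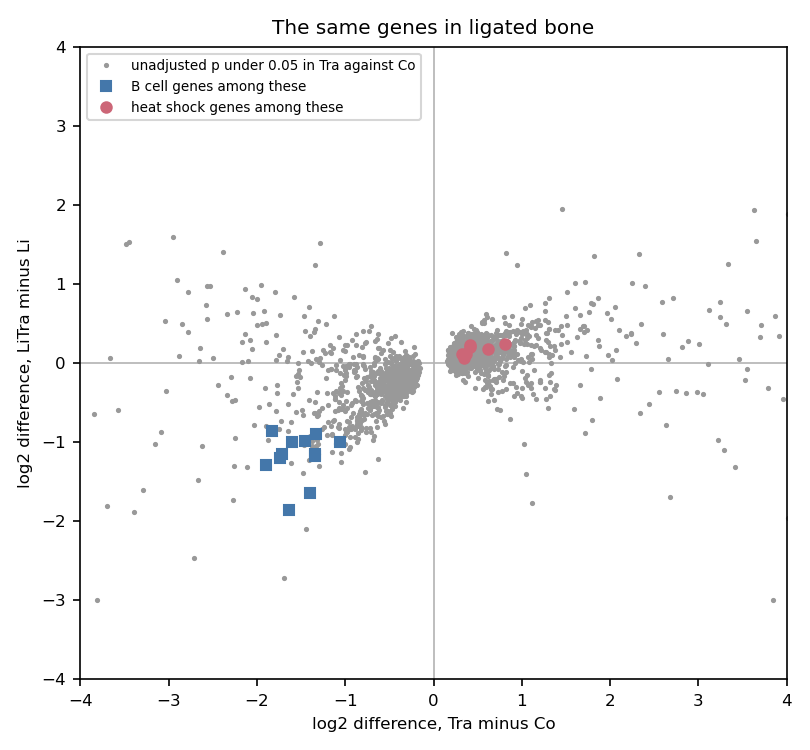
Each grey point is 1 of the 2023 genes at an unadjusted p under 0.05 in Tra against Co, with its log2 difference Tra minus Co on the x axis and LiTra minus Li on the y axis, both in bone, with B cell genes (blue squares) and heat shock genes (red circles) among them. All 12 B cell genes shown are below 0 on both axes and all 7 heat shock genes above 0, and 79 grey points lie beyond the axes, which end at 4.

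In gingiva the same contrast, Tra against Co, gave no called gene of 20143 by edgeR (0%), with 1323 (6.57%) at an unadjusted p under 0.05, and DESeq2 called 88. The labels do not say whether bone and gingiva came from the same mice. Of the genes higher in Tra bone 61.8% had the same sign in gingiva, and of the lower genes 69.4%, against 54.5% of all 19225 genes tested in both. Heat shock genes were higher at an unadjusted p under 0.05 in 7 of 13, where 4.08% of all gingiva genes were. Hspa8 differed by 0.64 in gingiva against 0.61 ± 0.13 in bone, and Dnaja1 by 0.20. B cell genes had a median of -1.14 in gingiva, with 0 of 11 lower at such a p (2.49% of all gingiva genes). Tnfsf11 differed by 1.62 in gingiva against 0.50 ± 0.28 in bone. The difference between the tissues was tested over 22559 genes in a fit of all 32 libraries, and edgeR called none (0%, with 1456, 6.45%, at an unadjusted p under 0.05).

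Overload bone differed from ligature bone in genes that passed the test. Between Li and Tra edgeR called 128 genes (0.604%), 124 higher in Li (0.585%) and 4 higher in Tra (0.0189%). The count depended on single libraries: it was 10 without Tra 1 or without Li 1, 13 without Tra 4, and 4 with library totals in place of TMM. Saa3, an acute phase protein, averaged 1.305 ± 0.451 CPM in Tra and 344 ± 145 in Li (SD, n = 4 each), a log2 difference, Li minus Tra, of 8.01 ± 0.643 with an adjusted p of 9.41e-05 by edgeR. In Co it averaged 2.07 ± 1.27, and the difference between Tra and Co was -0.66 ± 0.50 (unadjusted p 0.210). Ms4a6d, a membrane gene of macrophages, averaged 7.78 ± 0.806 in Co, 12.5 ± 2.19 in Tra and 37.5 ± 9.96 in Li (adjusted p 0.00382 between Li and Tra by edgeR). Cstb, the cathepsin inhibitor cystatin B, and Atp6v1h, a subunit of the proton pump with which osteoclasts acidify bone, were higher in Li by 1.09 and 0.70 on the log2 scale. Among osteoclast genes 10 of 20 were called higher in Li than in Tra, and their median was 0.96. Acp5 averaged 945 ± 365 in Tra and 1949 ± 303 in Li, and Ctsk 1419 ± 523 and 3300.0 ± 569.5. The genes called higher in Tra were the haem transporter Slc48a1 (-0.48), Cdkl1 (-1.35), the ubiquitin ligase Rnf167 (-0.42) and 1700029J07Rik (-1.03). By edgeR all 4 lost the call with the replicate number as a block (adjusted p 0.0693, 0.0739, 0.0861 and 0.0739), with no filter on low counts (0.0711, 0.0938, 0.156 and 0.0869), with library totals (0.999 each) and in each of the fits without 1 Tra library (0.0608 to 0.138). Ms4a6d, Cstb and Atp6v1h lost it with library totals (0.879, 0.999 and 0.999).

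Transcript GC content moved with the direction of the differences. Its median was 46.0% for the genes higher in Tra at an unadjusted p under 0.05, 53.3% for the lower ones and 49.5% for all genes. Spearman's rho of GC content with each gene's deviation from its mean was 0.02 to 0.20 in the Co libraries and -0.08 to 0.09 in the Tra libraries, with Co 4 highest. With each library's trend on GC content removed, 1257 genes (5.95%) were higher and 736 (3.48%) lower at such a p and edgeR again called none. In that fit the B cell list had 12 of 13 lower and a median of -1.48, and the heat shock list 7 of 13 higher and a median of 0.37.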

How the data were processed

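RNA from bone and gingiva was purified with TRIzol and the NucleoSpin RNA kit and sequenced as poly(A) libraries, per the labels. The authors deposited whole-number estimated counts per gene. Per the submitters' processing notes, which give neither order nor settings, Trimmomatic 0.39, FastQC 0.11.9, HISAT2 2.2.1, StringTie 2.1.7, DESeq2 1.32.0 and GRCm39 were used. Counts that StringTie estimates share reads among similar copies, so such genes are uncertain. Columns named CR were read as composite resin, the Tra group.

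The counts of the 16 bone libraries were fitted together in edgeR 4.0.16 (R 4.3.3) with 1 mean per group, TMM scaling, the quasi-likelihood test and Benjamini-Hochberg adjustment over the 21205 genes that passed filterByExpr (minimum count 10). A gene was called at an adjusted p under 0.05. DESeq2 1.42.0, limma-voom (limma 3.58.1), other scalings and filters, the replicate number as a block, a removal of the trend on GC content and fits without single libraries were alternatives. The edgeR script was tested on simulated counts. Symbols matched 52083 of 55359 gene IDs in an annotation of another build, so no gene coordinates came from it.

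Named genes were the 12 higher and 12 lower genes with the smallest p at a mean log2 CPM of at least 1, up to 4 genes per list by p, a fixed set of bone and inflammation genes, and 4 genes each way in the other comparisons. Ighm, Cd79a, Hsph1 and Hsp90aa1 were named after their values were seen. The groups, the 46 lists and the rules were chosen with earlier results of these data known. The GC removal and the fit without Co 3 and Tra 3 were added after the data were seen. No gene list was tested as a set.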

Additional observations from a re-analysis of the deposited data

Results flagged for a closer look

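In groups of 4 libraries, 328 sets of values were examined for 1 library far from the other 3, by Dixon's ratio at the 95% level, and 20 stood out, where chance flags about 1 in 20 groups. Of these, 9 were Tra 3 and 5 were Co 3, which have the largest shares of nasal gland genes among the Co and Tra bone libraries.

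Tra 3 was above the other Tra libraries for Wrb (15.4 CPM against 13.5 to 13.6) and the cilia gene Wdr35 (28.8 against 21.5 to 22.2). It was below them for the neutrophil receptors Fpr1 (2.48 against 13.5 to 18.2) and Csf3r (18.4 against 89.3 to 109), for Klf2 (16.4 against 34.5 to 37.3) and for the myelin gene Cnp (41.4 against 61.1 to 65.0). Its score for neutrophil precursor genes, a mean log2 deviation, was -1.87 against 0.25 to 0.58. It also had the fewest genes above 0, 22185 against 24943 to 25456, and the highest share of counts on 10 genes, 62.9% against 11.9% to 15.4%.

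Co 3 was below the other Co libraries for Klf2 (35.6 CPM against 52.3 to 56.4), Myc (24.3 against 35.4 to 35.9), Il17ra (76.6 against 104 to 108) and the Wnt pathway score (-0.52 against 0.03 to 0.07), and above them for Cnp (176 against 79.2 to 84.8).

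The others were spread over 4 libraries. Cd74 was at 357 CPM in Tra 4 against 215 to 225, Hspe1 at 43.6 in Co 1 against 35.3 to 36.5, and Sfrp4 at 119 in Co 2 against 69.6 to 74.1. The cartilage score was -0.00050 in Co 2 against -0.66 to -0.55, the sensory nerve score 1.89 in Co 4 against -0.96 to -0.71, and Co 2 had 70793037 counts against 42662599 to 46047069.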

How the results depend on the processing

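Tra against Co bone had 0 called genes in every edgeR and limma-voom fit at an adjusted p under 0.05, except 1 gene without Tra 2 (range 0 to 1 over fits without 1 library). It had 156 with DESeq2 and 1 at an adjusted p under 0.10. Li against Tra had 128 called genes, but 4 with library totals, 68 with no filter on low counts, 669 with DESeq2 and 248 with limma-voom. It had 277 without Co 3, Tra 3 and LiTra 1, the 3 libraries with the largest nasal gland shares. A Li library with a share of 24.2% stayed in that fit. Fits without 1 library gave 10 to 136. The count was 10 without Tra 1 or Li 1, 13 without Tra 4, 58 without Li 4 and 64 without Li 2. It was 65 without Co 4, 76 without Tra 2, 83 without LiTra 4 and 85 without Li 3. The interaction had 8 with DESeq2 (0 to 0 without 1 library), LiTra against Li 106 (0 to 2), gingiva 88 with DESeq2 and 2 with DESeq2 size factors (0 to 3), and bone minus gingiva 0 to 2. The cause of these differences was not tested.

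Equal replicate numbers are not stated to mark 1 animal, and same-numbered Co and Tra libraries correlated by -0.007, 0.46, 0.67 and -0.09. Differently numbered ones correlated by -0.59 to 0.42, and the 0.67 joins Co 3 and Tra 3. With the replicate number as a block Tra against Co had 0 called genes and 1845 at an unadjusted p under 0.05, and Li against Tra 106 called. Library totals moved the median of all genes by 0.20 in Li against Tra and by -0.10 in LiTra against Li.

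Named genes that changed sign were near 0 or low. Acp5 was 0.0052 with library totals, 0.19 with limma-voom and 0.059 without Co 3, Tra 3 and LiTra 1. It was 0.051 with the GC trend removed, 0.056 without Co 3 and Tra 3, and -0.26 to 0.23 without 1 library. Col1a1 was 0.025 with the block, 0.058 with the GC trend removed and -0.35 to 0.30 without 1 library. Il6 was 0.0997 without Co 3, Tra 3 and LiTra 1, 0.094 without Co 3 and Tra 3, and -1.09 to 0.19 without 1 library. Without 1 library Il1b was -0.72 to 0.15 and Ccn2 -0.098 to 0.45. With 4 libraries a group and a median SE of 0.29, small differences in single genes were not detectable.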
